A study of Mus musculus with 6 samples.

Results

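The 10 genes described here mark the dedifferentiated, invasive state of melanoma or drive the epithelial-mesenchymal transition (EMT): the transcription factors Zeb1, Zeb2, Snai2, Twist1, Sox9 and Fosl1, the receptors Egfr and Axl, the ectoenzyme Nt5e and the ligand Wnt5a. They were taken by name from the count table, and all 10 were found among its 55487 genes; 9 of them had enough reads to be tested, and Fosl1 did not. RNA had been sequenced from 6 whole tongue grafts of B16F10, a pigmented mouse melanoma line, grown under the tongue mucosa of immune-competent C57BL/6J mice; non-tumour tissue had been trimmed away, and the genotype was given as WT. The 3 control grafts and the 3 inhibition grafts came from mice whose cervical lymph nodes had received, 6 weeks before the tumour cells, AAV2/retro vectors carrying Trpv1-mCherry or Trpv1-hM4D(Gi)-mCherry, the second encoding a designer receptor that silences nociceptive nerves when its ligand is present. Deschloroclozapine, the ligand, was given 2 times a day for 12 days. The sample labels call the controls vehicle-treated whereas the design text describes the ligand for all mice, so the control treatment is not settled by the sources used here; the transcript of neither vector was counted, so the silencing could not be checked, ages were not given, and nothing said that the 3 samples of a group came from separate animals, so p-values cover the spread between these samples only.

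Melanoma cells move between a pigmented state held by MITF and SOX10 and a dedifferentiated state that is more motile and more resistant to therapy, in which AXL, EGFR, SOX9, the AP-1 subunit FOSL1, CD73 (the product of Nt5e) and WNT5A are typically high. EMT factors are used differently in this lineage than in carcinomas: ZEB2 and SNAI2 belong to normal melanocytes, while ZEB1 and TWIST1 appear as cells dedifferentiate. The same genes are also active in fibroblasts, and some in squamous epithelium or macrophages, so in whole grafts their reads come from a mixture of tumour and stroma. For every value below, more cells of a type and more RNA per cell cannot be told apart.

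ZEB1 and ZEB2 repress the genes of the miR-200 microRNAs, which in turn bind the 3′ untranslated regions of both messages, the best known feedback loop of EMT. The mature microRNAs are shown because their target sites were the sequence feature that set Zeb1 and Zeb2 apart from the other 8 genes; the libraries did not measure the microRNAs themselves. The sequences are from RefSeq (GRCm38.p6), 5′ to 3′, with the seed (bases 2 to 8) in capitals, and they fall into a pair of seed groups, AACACUG for the first 2 and AAUACUG for the other 3.
mmu-miR-200a-3p: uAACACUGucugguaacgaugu
mmu-miR-141-3p: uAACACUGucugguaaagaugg
mmu-miR-200b-3p: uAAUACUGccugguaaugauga
mmu-miR-200c-3p: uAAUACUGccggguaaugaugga
mmu-miR-429-3p: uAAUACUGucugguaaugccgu

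Matches to the seeds (CAGTGTT and CAGTATT, on the transcript strand only) were counted in the longest annotated 3′ untranslated region of each gene. Zeb1 held 4 and 5 of them, 9 in 2401 bases, and Zeb2 also held 4 and 5, 9 in 4941 bases. Only 3 of 17248 genes with any count (0.0174%) held 9 or more, and 28.7% held at least 1. Egfr held 3 matches, Snai2 and Wnt5a 2 each and Nt5e 1, while Twist1, Sox9, Fosl1 and Axl held 0. The first match of each kind in Zeb2, with the match in capitals, reads as follows.
Zeb2, AACACUG group: tgcaaaaattttgtaCAGTGTTaa
Zeb2, AAUACUG group: cgcactaccatacatCAGTATTtt

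The libraries held 14477277 to 20972494 counts, so that 1 count was worth 0.0476 to 0.0701 CPM (a count scaled to library size, here with TMM factors). Melanocyte genes bore out the label of the line: Tyrp1, Pmel and Mlana, which build the melanosome, ranked at or above 99.8% of tested genes per kilobase. Control 1 stood apart, with the lowest level of all 6 libraries for each of the 7 tissue and lineage lists examined. Muscle, fibroblast and endothelial lists lay higher in every inhibition library than in any control, and macrophage, squamous epithelial, Schwann cell and melanocytic lists overlapped between the groups.

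The comparison asked whether silencing the nociceptive nerves of the draining nodes changed the state of the melanoma graft. Egfr, Sox9 and Zeb1 averaged 1.7, 1.69 and 1.63 times their control level in the inhibition grafts, Twist1, Snai2 and Axl 1.87, 1.52 and 1.38 times, and Nt5e alone was below its control level, at 0.814 times. None of these differences passed the test. edgeR's quasi-likelihood test called 0 of the 9 tested genes at a Benjamini-Hochberg adjusted p under 0.05, where it called 0.0383% of all 15666 genes tested (0.0319% higher and 0.00638% lower). DESeq2 also called 0 of the 9, against 3.67% of the 14753 genes it tested (2.37% higher and 1.30% lower). An unadjusted edgeR p below 0.05 was reached by 3 of the 9 (15.4% of all genes), all on the higher side (Egfr, Zeb1 and Sox9; 8.36% of all genes), and by 0 on the lower (7.00%). In 2 of the 9, Zeb1 and Egfr, every inhibition library lay above every control, as in 10.2% of all genes, and in 0 the reverse held, against 11.0% (21.3% in either direction). The median log2 fold change of the 9 was 0.60, and 8 of 9 were positive; over all genes it was 0.005, with 51.0% positive. These describe the members that passed the filter on low counts, which leaves out Fosl1. Twist1 is among them only through its inhibition libraries, because its controls alone fell short of the filter. Without the filter on low counts edgeR called Zeb1 (adjusted p = 0.00238), Egfr (0.00966) and Sox9 (0.0114), in a fit that called 1187 of 28841 genes.

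**Figure D1:**
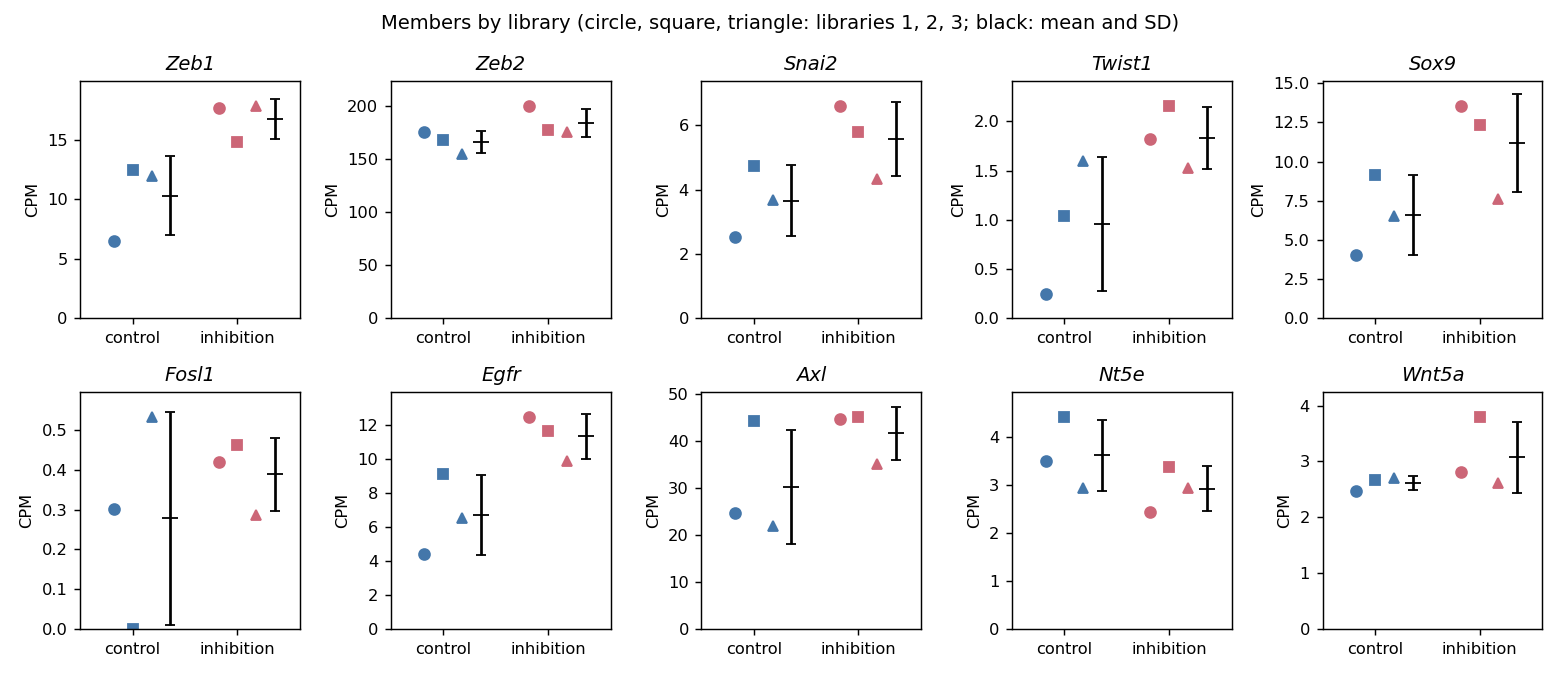
Level of each of the 10 genes in CPM (vertical axes start at 0) in the 3 control (blue) and 3 inhibition (red) libraries, with the mean and SD in black. The groups are separate in Zeb1 and Egfr and overlap in the other 8, and control 1 is the lowest point in Zeb1, Snai2, Twist1, Sox9, Egfr and Wnt5a.

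Zeb1 and Zeb2, zinc finger repressors of epithelial genes, differed in level and in how far the groups stood apart. Zeb1 (ENSMUSG00000024238, chromosome 18 from 5591860 to 5775467, GRCm38) was at 6.52, 12.4 and 12.0 CPM in controls 1, 2 and 3 and at 17.7, 14.9 and 17.8 CPM in inhibition 1, 2 and 3. All 3 inhibition libraries were above the highest control, and control 1 was well below the other 2 controls. The log2 fold change was 0.70 ± 0.23 (standard error; adjusted p = 0.227). Zeb2 (ENSMUSG00000026872, chromosome 2 from 44983632 to 45117395), which melanocytes need for their differentiation, was at 176, 168 and 155 CPM in the controls and 199, 177 and 175 CPM in the inhibition grafts. Its groups touched, control 1 being above inhibition 3, and its log2 fold change of 0.15 ± 0.08 had the smallest standard error of the 9 tested (adjusted p = 0.413). An antisense gene, Zeb2os, shares exons with Zeb2 and had 5 to 19 counts per library against 2581 to 3673 for Zeb2; whether counting used strand was not given in the sources used here.

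Snai2 and Twist1, 2 more EMT factors, were scarce. Snai2 (ENSMUSG00000022676, chromosome 16 from 14705852 to 14709385), the SLUG repressor needed by migrating neural crest and melanoblasts, was at 2.53, 4.75 and 3.68 CPM in the controls and 6.59, 5.79 and 4.34 CPM under inhibition. Inhibition 3 lay below control 2, and the log2 fold change of 0.60 ± 0.28 did not pass (adjusted p = 0.341). Twist1 (ENSMUSG00000035799, chromosome 12 from 33957671 to 33959829), a helix-loop-helix factor of mesenchyme, was at 0.241, 1.04 and 1.6 CPM in the controls, the first of these resting on 4 counts, and at 1.82, 2.15 and 1.52 CPM under inhibition. Its log2 fold change of 0.90 ± 0.52 (adjusted p = 0.430) varied with single controls: it was 0.45 without control 1 and 1.52 without control 3. With 2 of 3 controls and 3 of 3 inhibition libraries at or above the 0.56 CPM that the filter asks for in 3 libraries, the controls alone would not have let Twist1 be tested.

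Among the other EMT transcription factors listed, 7 of 10 were tested and 0 called. All 7 had positive log2 fold changes, with a median of 0.24, and 1 had an unadjusted p below 0.05 (8.36% of all genes on the higher side). That gene was Prrx1, a homeobox factor of fibroblasts and mesenchyme, at 6.52, 10.2 and 12.1 CPM in the controls and 14.9, 13.4 and 14.8 CPM in the inhibition grafts (log2 fold change 0.58 ± 0.21, adjusted p = 0.250). As for Zeb1, control 1 was lowest and the groups did not overlap. Snai1, the closest relative of Snai2, was at 4.84 ± 1.98 CPM in control and 5.72 ± 0.663 CPM in inhibition grafts (SD, n = 3 per group; log2 fold change 0.24, adjusted p = 0.736), and Klf8 had a log2 fold change of 0.70 (0.466). Twist2 was present at up to 0.238 CPM and was not tested.

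Sox9 and Fosl1 are transcription factors of the invasive melanoma programme. Sox9 (ENSMUSG00000000567, chromosome 11 from 112782224 to 112787760), which opposes SOX10 in melanoma and is also active in hair follicle, gland and cartilage cells, was at 4.04, 9.17 and 6.53 CPM in the controls and 13.5, 12.4 and 7.62 CPM under inhibition. The first 2 inhibition grafts were the high ones; inhibition 3 lay below control 2. The log2 fold change was 0.76 ± 0.32 (adjusted p = 0.312). Fosl1 (ENSMUSG00000024912, chromosome 19 from 5447547 to 5455946), which encodes FRA-1, had 5, 0 and 11 counts in the controls and 6, 9 and 6 in the inhibition grafts. Control 2 could have held up to 0.195 CPM and still given 0 counts (3 counts of its total, counting error only). These counts were too few for a comparison, and without the filter the log2 fold change was 0.38 ± 0.71 (adjusted p = 0.849). Its exons overlap those of Ccdc85b on the opposite strand, which had 277 to 429 counts, so even these few reads are uncertain.

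Relatives of Sox9 and Fosl1 were read from the SOX and AP-1 lists. Sox10, the melanocytic counterpart of Sox9, held 596 ± 18.7 CPM in controls and 614 ± 62.1 CPM in inhibition grafts (log2 fold change 0.04 ± 0.09, adjusted p = 0.832). Of 7 tested SOX factors 0 were called and 5 were positive, with a median of 0.07. Groups did not overlap in 1 on the higher side (10.2% of all genes), Sox18 of vessel endothelium (0.44, adjusted p = 0.341). They did not overlap in 1 on the lower side (11.0% of all genes), Sox6 (-0.16, 0.346). Sox2, a stem cell factor, had 1.32 (0.275) at 0.480 ± 0.237 and 1.19 ± 0.495 CPM; 1 of 3 controls and 3 of 3 inhibition libraries reached the filter level of 0.56 CPM, so it was tested through the group where it is high. Among AP-1 subunits, the family of FRA-1, all 10 tested had negative log2 fold changes, with a median of -0.32. Of these 0 were called and 2 had an unadjusted p below 0.05 on the lower side (7.00% of all genes). Junb was at 76.3, 62.7 and 63.9 CPM in the controls and 44.4, 50.8 and 62.6 CPM under inhibition, a narrow separation (-0.36 ± 0.13, adjusted p = 0.259), and Maff had -0.38 (0.305).

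Egfr (ENSMUSG00000020122, chromosome 11 from 16752203 to 16918158), a receptor tyrosine kinase of epithelium and fibroblasts that appears on dedifferentiated melanoma cells, was at 4.41, 9.11 and 6.53 CPM in the controls and 12.5, 11.7 and 9.86 CPM in the inhibition grafts. No inhibition library fell into the range of the controls, though control 2 came within 1 CPM of inhibition 3. The log2 fold change was 0.76 ± 0.25 (adjusted p = 0.226), and it ran from 0.53 to 1.03 when single libraries were left out. Its ligands were low. Hbegf was at 6.84 ± 0.853 and 8.31 ± 0.935 CPM (SD, n = 3 per group; 0.28, adjusted p = 0.478), Tgfa had -0.08 (0.923), and Areg was at 0.145 to 0.771 CPM and was not tested. Of 8 tested EGFR ligands and ERBB receptors 0 were called and 0 had an unadjusted p below 0.05. Erbb3, the ERBB receptor of the melanocyte lineage, had the smallest p of these and a negative value, -0.35 (0.423).

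Axl (ENSMUSG00000002602, chromosome 7 from 25757273 to 25788705), a TAM receptor of invasive melanoma cells, macrophages and fibroblasts, was at 24.6, 44.2 and 21.9 CPM in the controls and 44.7, 45.2 and 35.3 CPM in the inhibition grafts. Control 2 lay above inhibition 3, and the other 2 controls lay below every inhibition library. The log2 fold change was 0.47 ± 0.28 (adjusted p = 0.464); without control 2 it was 0.83. Gas6, the ligand that activates AXL, stood further apart than the receptor: 10.3, 17.8 and 13.7 CPM in the controls and 30.3, 30.0 and 18.9 CPM under inhibition. Those groups did not overlap, and the log2 fold change of 0.92 ± 0.25 missed the threshold in edgeR (adjusted p = 0.198) and passed it in DESeq2 (0.00674). Pros1, the second TAM ligand, was on the other side (-0.29 ± 0.13, adjusted p = 0.332). The remaining TAM receptors Tyro3 and Mertk had -0.16 and 0.11 (adjusted p = 0.416 and 0.758). Tyro3 was separate too, on the lower side, at 24.02, 25.31 and 23.71 CPM in the controls and 21.65, 21.68 and 21.87 CPM under inhibition. Over all genes 11.0% were separate on that side and 10.2% on the higher.

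Nt5e and Wnt5a, an ectoenzyme and a secreted ligand of the invasive programme, had the largest adjusted p-values of the 9 tested. Nt5e (ENSMUSG00000032420, chromosome 9 from 88327197 to 88372092), which makes adenosine outside the cell, was at 3.5, 4.42 and 2.95 CPM in the controls and 2.45, 3.38 and 2.95 CPM under inhibition (-0.30 ± 0.26, adjusted p = 0.611). Inhibition 2 and 3 lay inside the range of the controls. Wnt5a (ENSMUSG00000021994, chromosome 14 from 28504750 to 28527448), the non-canonical WNT ligand of motile melanoma cells, was at 2.47, 2.67 and 2.71 CPM in the controls and 2.80, 3.79 and 2.62 CPM under inhibition, inhibition 2 alone standing out (0.23 ± 0.26, adjusted p = 0.692). The adenosine axis around Nt5e had 9 tested genes, 0 called and 7 positive. Entpd1 (CD39), the enzyme that supplies CD73, was at 15.1 ± 1.08 and 16.6 ± 1.32 CPM (SD, n = 3 per group; 0.13, adjusted p = 0.620). The adenosine-clearing gene Ada, abundant in tongue epithelium, ranged from 21.9 to 85.2 CPM in controls and 55.4 to 211 CPM in inhibition grafts (1.58, adjusted p = 0.400), and Dpp4 had 1.5 (0.242), but with 1 of 3 controls and 3 of 3 inhibition libraries at the filter level it was tested through the group where it is high.

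Ror2, the receptor that carries WNT5A signals in mesenchyme, had groups that did not overlap, unlike its ligand. It was at 0.302, 0.520 and 0.629 CPM in the controls and 1.33, 1.54 and 1.43 CPM in the inhibition grafts. The log2 fold change of 1.54 ± 0.38 missed the threshold (adjusted p = 0.166). Of the controls 1 of 3 reached the filter level of 0.56 CPM and of the inhibition libraries 3 of 3, so Ror2 was tested through the group where it is high, and its separation is given as a description. Of 12 tested WNT5A receptors and WNT partners 0 were called, 6 were positive and 3 had an unadjusted p below 0.05 on the higher side (8.36% of all genes). The median was -0.02, and Fzd4, a receptor of endothelium, had 0.30 (0.266).

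The promoters of the member Egfr and of the WNT5A receptor Ror2 are shown as examples. Neither gene was called, and Ror2 was tested through the group where it is high. The AP-1 motif TGANTCA was searched in both. The windows run from 250 bases before to 50 bases after the RefSeq start (GRCm38.p6), 5′ to 3′ on the gene's strand, with any match on either strand in capitals.
Egfr, chr11:16751953-16752252, plus strand: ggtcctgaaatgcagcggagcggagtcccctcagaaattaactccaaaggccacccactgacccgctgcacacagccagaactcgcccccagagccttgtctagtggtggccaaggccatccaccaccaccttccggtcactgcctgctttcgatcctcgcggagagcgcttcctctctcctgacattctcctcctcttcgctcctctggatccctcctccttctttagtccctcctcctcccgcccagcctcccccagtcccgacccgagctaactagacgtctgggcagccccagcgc
Ror2, chr13:53286075-53286374, minus strand: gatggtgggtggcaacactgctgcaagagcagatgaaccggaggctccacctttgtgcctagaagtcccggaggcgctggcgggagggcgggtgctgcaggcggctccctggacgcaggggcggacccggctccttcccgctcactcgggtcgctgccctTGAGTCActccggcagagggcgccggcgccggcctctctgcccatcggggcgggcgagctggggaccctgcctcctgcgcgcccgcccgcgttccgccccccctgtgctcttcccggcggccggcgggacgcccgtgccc

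Ror2 held 1 match, 90 bases before its start, and Egfr 0, where 7.8% of 32851 promoters held at least 1. The promoter of Gas6, whose groups also did not overlap, held 0. Among the 5 members with a RefSeq promoter, 1 of the 4 windows of Zeb2 held 2 matches, and Twist1, Axl and Nt5e held 0. The E-box CACCTG bound by ZEB and SNAI factors was in 0 of the windows of these 5 members and in 20.2% of all promoters. A match describes the letters only, and a window without one says nothing about the factor.

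Tested epithelial genes lay on the same side as the EMT factors that repress them. Of 18 listed epithelial genes that ZEB and SNAI factors are known to repress, 12 were tested. All 12 had positive log2 fold changes with a median of 0.91. Of these 0 were called by edgeR and 6 had an unadjusted p below 0.05 on the higher side (8.36% of all genes). DESeq2 called 2, Ovol1 and Esrp2 (2.37% of the genes it tested were called higher). The other listed genes were too scarce to be tested. Their mean CPM was lower under inhibition for Cldn7, Ovol2, Krt8 and Marveld3 and higher for Ocln and Krt18. Cdh1 (E-cadherin), the classical target of ZEB and SNAI factors, was at 4.59, 10.4 and 8.08 CPM in the controls and 17.0, 16.8 and 9.72 CPM under inhibition. Inhibition 3 lay below control 2 (0.91 ± 0.33, adjusted p = 0.266). Ovol1, an epithelial factor that represses Zeb1, was at 1.91 ± 0.511 and 5.17 ± 2.24 CPM (1.43, adjusted p = 0.179), and the splicing regulator Esrp2 had 1.25 (0.198). The squamous epithelial list lay between -0.42 and 0.50 in the controls and between 0.18 and 1.38 in the inhibition grafts (mean log2 CPM less the control mean); its part in these values was not tested.

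Mesenchymal effectors of EMT differed among themselves. Vim (vimentin), abundant in these grafts, was at 1918 ± 195 and 1903 ± 193 CPM (-0.01 ± 0.10, adjusted p = 0.967). Cdh2 (N-cadherin) was at 69.1 ± 6.91 and 65.0 ± 5.76 CPM (-0.09 ± 0.10, adjusted p = 0.687). The spreads of CPM are SD, with n = 3 per group. The groups overlapped for both, which tumour cells and stroma can each express. The matrix gene Fn1 (fibronectin) was at 357, 519 and 408 CPM in the controls and 748, 627 and 536 CPM under inhibition (0.57 ± 0.17; adjusted p = 0.218 in edgeR and 0.00830 in DESeq2), and Sparc had 0.26 (0.223). Of the 14 tested genes 0 were called by edgeR, 9 were positive and 5 had an unadjusted p below 0.05, all on the higher side (8.36% of all genes).

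**Figure D2:**
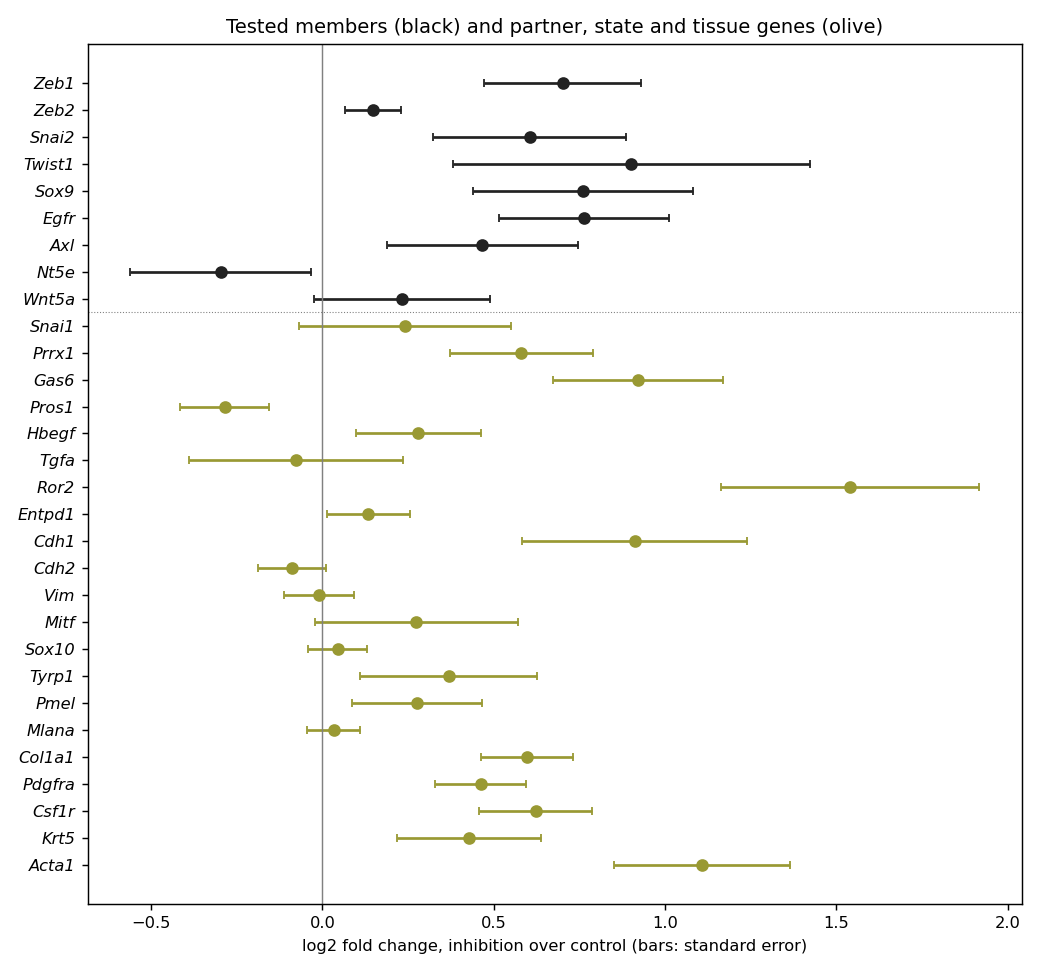
Log2 fold change with standard error of the 9 tested members (black) and of partner, state and tissue genes (olive), inhibition over control. Zeb2, Vim, Cdh2, Sox10 and Mlana lie within 0.15 of 0, while Ror2 (1.54) lies farthest to the right and Nt5e (-0.30) farthest to the left.

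Other markers of the dedifferentiated state lay on both sides. Of 28 tested genes 0 were called by edgeR and 21 were positive, with a median of 0.28. An unadjusted p below 0.05 was reached by 9 on the higher side (8.36% of all genes) and 4 on the lower (7.00%). Pdgfra and Pdgfrb of this list are also in the fibroblast list, and Met is also in the melanocytic list. Tnc, Sox2, Nrg1 and Ngfr are each in another list as well, so the lists are not independent. DESeq2 called Cav1 and Serpine2 higher (2.37% of the genes it tested) and Tnfrsf12a and Il6 lower (1.30%). Cav1 (caveolin), also a gene of endothelium and fibroblasts, was at 56.0 ± 7.95 and 79.8 ± 6.85 CPM (0.51 ± 0.11, adjusted p = 0.162). Tnfrsf12a, the TWEAK receptor and an AP-1 target, was at 92.6 ± 5.0 and 70.8 ± 7.0 CPM (SD, n = 3 per group; -0.38 ± 0.09, adjusted p = 0.166), with every inhibition library below every control. The TEAD and YAP list, the transcription module that keeps melanoma cells undifferentiated, had 14 tested genes, 8 positive and a median of 0.09, and edgeR called 0. The target Ccn2, which fibroblasts also make, had 0.61 ± 0.13 (adjusted p = 0.162 in edgeR and 0.00311 in DESeq2). Axin2, which was placed in the same list, had 0.65 (edgeR adjusted p = 0.214).

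Genes of the pigmented state did not pass the test. Of 27 tested melanocytic genes 0 were called, 0 had an unadjusted p below 0.05 in either direction, 23 were positive and the median was 0.21. Mitf, the master regulator, was at 343, 730 and 533 CPM in the controls and 788, 605 and 549 CPM under inhibition, the range of the controls enclosing 2 of the 3 inhibition values (0.27 ± 0.30, adjusted p = 0.693). Tyrp1 and Pmel had 0.37 ± 0.26 and 0.28 ± 0.19 (0.528 and 0.514), both with control 1 lowest, and Mlana 0.03 ± 0.08 (0.863). Kit, the stem cell factor receptor, had 0.55 (0.366) and Pax3 0.22 (0.401).

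The levels of stroma lists are given beside the members that stroma can also express. Relative to its control mean, the fibroblast list (18 genes, such as Col1a1 and Pdgfra) was at -0.38, 0.23 and 0.15 in controls 1, 2 and 3 and at 0.87, 0.77 and 0.50 in inhibition 1, 2 and 3 on the log2 scale; its summed level was 996 to 1535 CPM in the controls and 1869 to 2420 CPM in the inhibition grafts, with 0 of the 18 genes at 0 in every library. All 18 of its genes were positive with a median of 0.67. An unadjusted edgeR p below 0.05 was reached by 17 of them (8.36% of all genes on the higher side). Of the 18, 0 were called by edgeR and 11 by DESeq2 (2.37% of the genes it tested were called higher). edgeR also called 0 genes of the other tissue lists, whose median log2 fold changes were 0.51 for macrophages, 0.41 for endothelium, 0.76 for squamous epithelium, 1.29 for muscle and 0.04 for Schwann cells. DESeq2 called 10 of 19 muscle genes, 2 of 10 endothelial, 2 of 14 epithelial, 1 of 12 macrophage and 1 of 9 Schwann cell genes, all higher. The marker genes Csf1r (macrophages), Krt5 (epithelium) and Acta1 (muscle) had 0.62, 0.43 and 1.11 (adjusted p = 0.186, 0.389 and 0.186). Snai2 was at -0.47, 0.41 and 0.05 and then 0.87, 0.69 and 0.28, and Egfr at -0.53, 0.50 and 0.03 and then 0.95, 0.86 and 0.61. In both, and in Sox9, control 1 was lowest and inhibition 1 highest, as in the fibroblast, muscle and melanocytic lists alike; the other 6 tested members had another lowest or highest library. The part of tissue content in these values was not tested apart from the fits with a tissue level.

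When the fibroblast level of each library was subtracted from a member's log2 level, the groups overlapped for Zeb1, Snai2, Twist1, Sox9, Egfr and Axl, whose group means then differed by -0.19 to 0.41. For Zeb2, Nt5e and Wnt5a every inhibition library then lay below every control, with differences of means of -0.57, -1.0 and -0.51, as did 68.9% of all genes tested (1.10% lay above). Subtracting the level of the melanocytic list instead left Zeb1, Snai2 and Egfr higher in all 3 inhibition libraries (by 0.54, 0.40 and 0.59). For Snai2 there was hardly a margin, the highest control and the lowest inhibition library both rounding to 0.21. Over all genes 5.25% lay on that side and 11.0% on the lower. Zeb2 and Wnt5a were left with differences of -0.07 and -0.01.

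**Figure D3:**
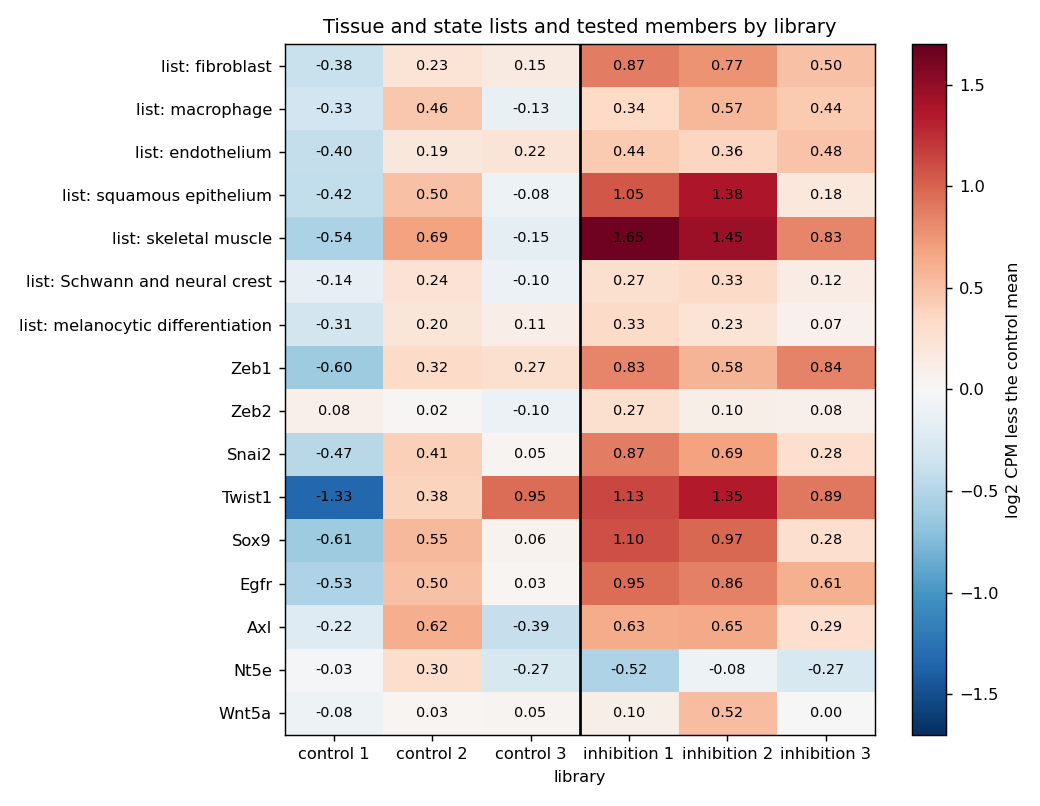
Mean log2 CPM of 7 tissue and lineage lists, and log2 CPM of the 9 tested members, less the mean of the controls (colour and printed value), in the 6 libraries. Control 1 is low in every list and in Zeb1, Snai2, Twist1, Sox9 and Egfr, while Zeb2 stays within -0.10 to 0.27 in all 6.

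Fits that included a tissue level gave other values. With the fibroblast level as a covariate, the log2 fold changes were 0.02 ± 0.31 for Zeb1, -0.13 ± 0.31 for Egfr, -0.54 ± 0.32 for Sox9, -0.36 ± 0.40 for Snai2 and -0.83 ± 0.77 for Twist1, and the median of the 9 was -0.16. With the muscle level instead they were 0.28 ± 0.36, -0.06 ± 0.30, -0.44 ± 0.31, -0.29 ± 0.38 and 0.11 ± 0.91, with a median of -0.06. In both fits 0 of the 9 had an unadjusted p below 0.05 in either direction. Zeb2 was at 0.17 and 0.09 and Nt5e at -0.35 and -0.55, each keeping, as Zeb1 did, the sign it had without a covariate. Both tissue levels were higher in every inhibition graft than in any control, so tissue content and group cannot be told apart.

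**Figure D4:**
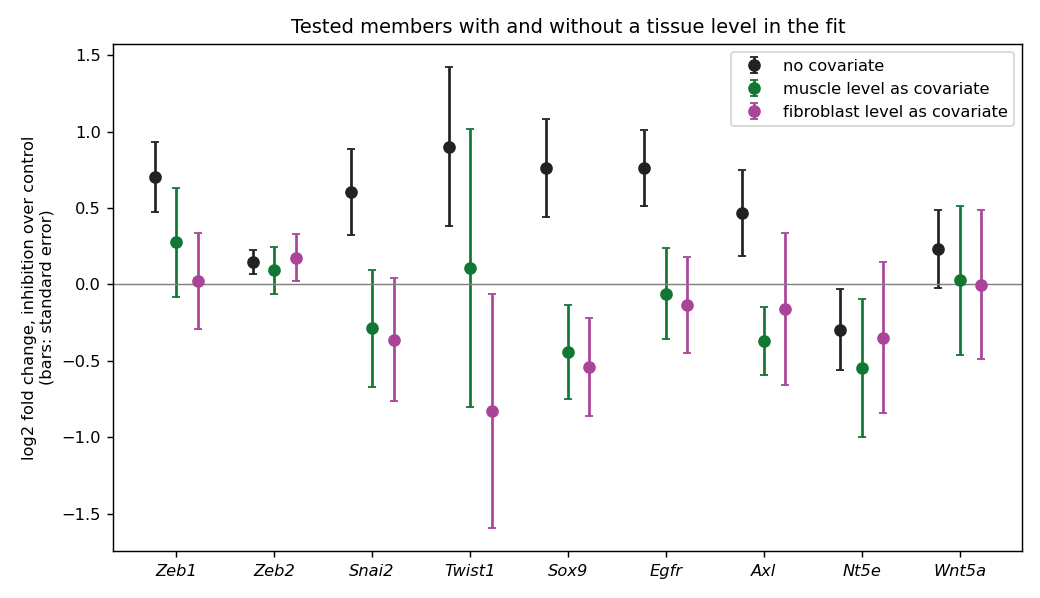
Log2 fold change with standard error of the 9 tested members, inhibition over control, without a covariate (black) and with the muscle (green) or fibroblast (purple) level of each library in the fit. Snai2, Sox9, Egfr and Axl pass from above to below 0 with either covariate, and Zeb1, Zeb2 and Nt5e keep their sign.

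Per kilobase of exon the 10 genes covered a wide range and all lay far below the pigment genes Tyrp1, Pmel and Mlana. Zeb2 led, at 7.76 to 10 CPM per kilobase over the 6 libraries, followed by Axl at 4.35 to 8.97. Their ranges overlapped. A gap followed, every library holding more Axl than Snai2 (1.25 to 3.26), and Sox9 (0.978 to 3.27), Zeb1 (0.635 to 1.74), Twist1 (0.148 to 1.32) and Egfr (0.389 to 1.1) overlapped with their neighbours in turn. Nt5e (0.285 to 0.514) and Wnt5a (0.316 to 0.485) could not be ordered, and Fosl1 was last at 0 to 0.262. Zeb2 exceeded 63.6% of the tested genes and Axl 58.5%, whereas Zeb1 exceeded 24.6%, Egfr 17.6% and Wnt5a 8.55%. Mitf, at a mean of 95.4 CPM per kilobase, and Sox10, at 198, were above 97.4% and 98.9% of them. Pdgfra, a receptor of fibroblasts, stood at 1.58, within the range of Zeb1 and Sox9. Exon lengths were unions over all annotated transcripts, which lowers genes with many isoforms such as Zeb2 (19942 bases).

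**Figure D5:**
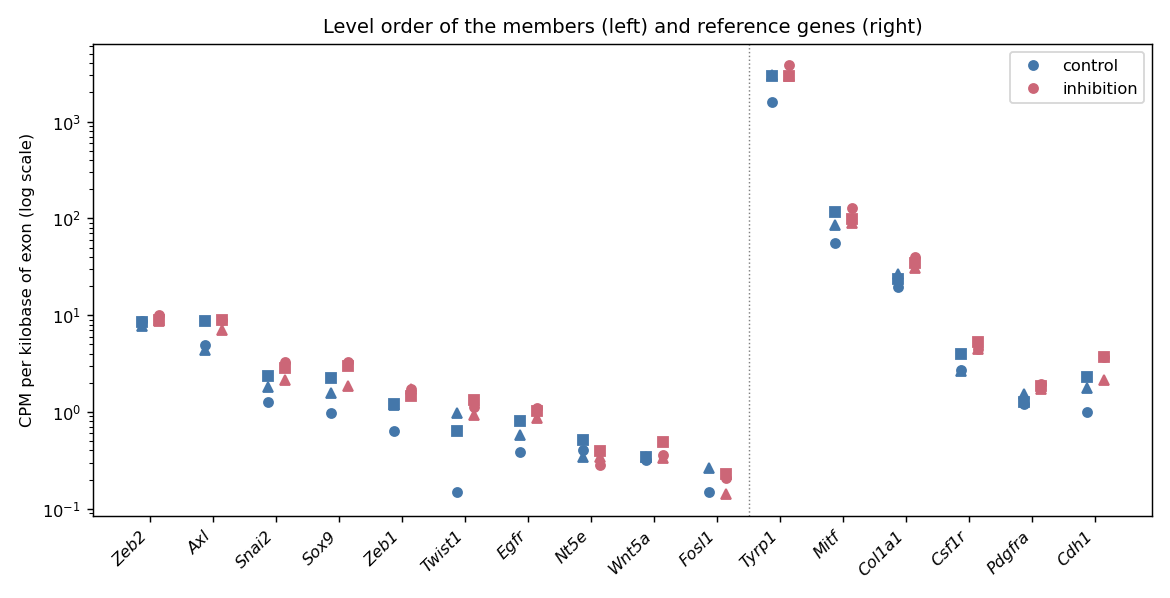
CPM per kilobase of exon (log axis) in the 3 control (blue) and 3 inhibition (red) libraries for the 10 members in order of their mean, and for 6 reference genes; circle, square and triangle are libraries 1, 2 and 3, and the single value of 0 (Fosl1 in control 2) is not drawn. Zeb2 and Axl stand above the other 8 members, all of which lie below Tyrp1 and Mitf.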

How the data were processed

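Raw read counts per Ensembl gene were deposited as 1 table with 6 library columns; the deposited values are whole numbers whose totals differ, so the authors had not scaled them. Alignment used HISAT2 2.0 and mm10, per the submitters' processing notes; a counter, an annotation and strandedness are not given in the sources used here. Columns were matched to samples by name and number (0 columns unused), the treated columns being named for nociceptive denervation and the samples for inhibition. Of 55487 gene IDs 55141 had a symbol. Coordinates and lengths are from GENCODE M21 (GRCm38, the assembly of mm10), promoters and microRNAs from RefSeq.

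Genes were filtered with filterByExpr (count minimum 10, total minimum 15), scaled by TMM and tested with the quasi-likelihood method of edgeR 4.0.16 (R 4.3.3, robust, Benjamini-Hochberg over all genes); standard errors are the absolute log2 fold change over the square root of F. Tissue lists are mean log2 CPM (prior count 2). Alternatives were RLE and upper-quartile scaling, 2 filters, limma-voom 3.58.1, DESeq2 1.42.0, a replicate block, omission of each library, muscle or fibroblast level as covariate, and scaling without muscle and epithelial genes. On counts simulated for this comparison (10 draws, 15415 to 15465 genes), edgeR called 56.2% to 74% of genes with a 2-fold change, 86.9% to 96.8% of those with a 4-fold change, and 9 to 20 unchanged genes. The simulated counts were drawn independently for each gene, without a tissue shift shared by the genes of a library, and the changed genes were of all levels. These shares therefore do not give the power for the 9 tested members.

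The members and the gene lists were chosen with earlier results of these data known. All 10 members are named; of each other list the called genes, or the 2 with the smallest p, and a fixed set of partners and tissue markers. Serpine2, Il6, Sox6, Tyro3, Mertk and the untested epithelial genes were named after their values were seen.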

Additional observations from a re-analysis of the deposited data

How the results depend on the processing

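Across 16 alternatives, 0 members were called except without the filter on low counts, where 3 were (and 5 had an unadjusted p below 0.05 on the higher side). That second number was 0 with either tissue covariate and ranged from 2 to 5 when single libraries were left out, the 5 arising without control 2; the median log2 fold change then ranged from 0.394 to 0.826. Given the muscle level, the median was -0.062 while Snai2, Sox9, Egfr and Axl turned to -0.286, -0.443, -0.062 and -0.370. Given the fibroblast level it was -0.161 while Snai2, Twist1, Sox9, Egfr, Axl and Wnt5a turned to -0.362, -0.829, -0.540, -0.134, -0.161 and -0.001; the cause was not tested. With the replicate block 0 members were called, the median was 0.612 and the calls over all genes went from 6 to 14; same-numbered libraries had correlated deviations of -0.18, 0.33 and 0.09, so the numbers were not taken as pairs. Not every library correlated best with its own number. Over all genes DESeq2 called 541 and limma-voom 0, and leaving out single libraries gave 0 to 217. The level order was the same under RLE scaling for all 10 members.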
